A study of Mus musculus with 6 samples.

Results

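The NADPH oxidase transcripts of primary mouse embryonic fibroblasts (pMEFs) were followed by RNA-seq in lines with and without HAT1, a histone acetyltransferase that acts on new H4 before it reaches chromatin. The phagocyte oxidase is a membrane enzyme that passes electrons from NADPH to oxygen and so makes superoxide, and it is known above all from macrophages and neutrophils. Its catalytic core is a membrane pair of gp91phox (Cybb, also called NOX2) and p22phox (Cyba). In resting cells the organiser p47phox (Ncf1) and the adaptor p40phox (Ncf4) wait in the cytosol, and they join the core together with a Rac GTPase when the cell is stimulated. NOX4 (Nox4) is a relative of gp91phox found in fibroblasts and other tissue cells. It also pairs with p22phox, is thought to be active without the cytosolic subunits, and is known as a gene that TGF-beta induces.

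The members were 5 genes chosen by symbol, the phagocyte subunits Cybb, Cyba, Ncf1 and Ncf4 and the fibroblast oxidase Nox4, of 17512 genes in the deposited count table. All 5 were found and all 5 passed the filter on low counts. They were chosen with the counts of HAT1 KO and HAT1 WT lines in view, so the difference between the genotypes is given for them as a description without a test.

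Lines of 2 genotypes on the C57bl6 background were compared, 3 with the genotype HAT1 WT (lines 36, 47 and 78) and 3 with HAT1 KO (lines 33, 41 and 72). The cells came from mid-gestation embryos of which the internal organs had been removed, and were grown as primary cultures without sorting in serum-containing medium. The KO lines came from embryos that lacked HAT1 throughout, and no line received a treatment. Passage number and embryo sex were not given in the sources used here.

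Total counts lay between 67720628 and 98786746 per library, and the ranges of the genotypes overlapped. Hat1 itself was at 17.4 to 23.0 CPM in the WT lines and at 10.0 to 10.3 CPM in the KO lines, so it was lower in every library labelled KO but not absent. Y-linked genes had 13788 and 12841 counts in WT lines 36 and 47, 231 in WT line 78 and at most 8 in any KO line. The X-linked gene Xist had 94 and 1179 counts in WT lines 36 and 47, 29520 in WT line 78 and 11233 to 13722 in the KO lines. WT line 78 was thus the only WT line close to the KO lines in the Y-linked genes, but it was above them in Xist. Genotype and sex-linked expression could not be told apart with the other lines. By the sample descriptions the lines were sequenced on 3 lanes, with WT line 36 alone on lane 8. All 10 fibroblast markers were tested, and their summed level was between 71176 and 76577 CPM in WT and between 57738 and 89814 CPM in KO lines. All 12 macrophage markers were detected as well. They summed to between 5077 and 5548 CPM in the WT lines and to between 2386 and 3019 CPM in the KO lines, so the RNA of every line held macrophage transcripts beside those of fibroblasts.

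The sequences around the transcription start sites show how different the members are as genes, and they are printed here to be set beside the levels that follow. RefSeq windows of 300 bases on GRCm38.p6, with 250 bases before the annotated start and 50 after it, were at hand for 4 of the 5 members, Ncf4 being the exception. They are written 5′ to 3′ on the gene's own strand. Capitals mark matches on either strand to GAGGAA, a core bound by the myeloid factor PU.1, to GAAA followed after any 2 bases by another GAAA, the paired core of interferon regulatory factor sites, and to GGGCGG, a core of GC boxes.
Cybb, chrX:9469275-9469574, minus strand: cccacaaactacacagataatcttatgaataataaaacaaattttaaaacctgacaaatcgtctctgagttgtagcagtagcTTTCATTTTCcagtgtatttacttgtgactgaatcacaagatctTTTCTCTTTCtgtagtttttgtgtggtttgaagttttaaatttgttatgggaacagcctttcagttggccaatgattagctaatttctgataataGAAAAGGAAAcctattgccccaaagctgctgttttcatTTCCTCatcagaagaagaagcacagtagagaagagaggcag
Ncf1, chr5:134229576-134229875, minus strand: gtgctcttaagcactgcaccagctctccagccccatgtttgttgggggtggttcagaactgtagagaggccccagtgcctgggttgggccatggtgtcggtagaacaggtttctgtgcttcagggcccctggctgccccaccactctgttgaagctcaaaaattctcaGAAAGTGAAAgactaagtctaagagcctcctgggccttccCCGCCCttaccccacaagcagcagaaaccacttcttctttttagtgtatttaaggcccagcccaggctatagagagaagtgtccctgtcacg
Cyba, chr8:122432891-122433190, minus strand: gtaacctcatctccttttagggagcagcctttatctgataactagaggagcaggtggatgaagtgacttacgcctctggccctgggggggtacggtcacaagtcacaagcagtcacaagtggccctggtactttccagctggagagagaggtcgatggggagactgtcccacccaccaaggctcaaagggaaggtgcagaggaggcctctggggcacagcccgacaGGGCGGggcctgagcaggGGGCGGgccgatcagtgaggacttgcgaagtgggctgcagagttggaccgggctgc
Nox4, chr7:87246399-87246698, plus strand: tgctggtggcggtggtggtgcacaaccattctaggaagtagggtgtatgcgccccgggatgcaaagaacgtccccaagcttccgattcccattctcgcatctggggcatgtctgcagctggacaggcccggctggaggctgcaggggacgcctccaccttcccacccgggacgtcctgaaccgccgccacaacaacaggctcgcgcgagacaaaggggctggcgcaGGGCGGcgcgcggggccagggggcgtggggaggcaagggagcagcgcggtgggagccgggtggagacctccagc

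The Cybb window was poor in CpG, with 1 CpG and 35.3% G and C, against medians of 7 CpG and 52.7% over the 32851 windows of all genes. It held 3 matches to the paired GAAA motif, beginning at positions -168, -124 and -29 from the start, and 1 match to GAGGAA that began at position 10. The Ncf1 window had 3 CpG and held the paired GAAA motif at position -82 and GGGCGG at position -42. Matches to the paired motif were present in 3.4% of all windows, to GAGGAA in 28.3% and to GGGCGG in 35.7%. The Cyba window held GGGCGG at positions -24 and -6, and 9 CpG. The Nox4 window was the richest of the 4, with 24 CpG, 68.3% G and C, and GGGCGG at position -24. Further searches found CCAAT, present in 37.4% of windows, and TGANTCA, a core of AP-1 sites present in 7.8%, each once in the Cybb window and not in the other windows. These are matches of letters in a fixed window and were not linked to binding in these cells. The motifs were chosen with these sequences in view.

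Cybb codes for the catalytic subunit of the phagocyte oxidase. The gene lies on chromosome X between positions 9435252 and 9487771 of GRCm38. WT lines 36, 47 and 78 had 189, 169 and 198 CPM (counts relative to the library's TMM-scaled size), and KO lines 33, 41 and 72 had 125, 102 and 115 CPM. Every KO line was below every WT line, and the spread within a genotype was small beside the distance between them. The means were 185 ± 14.6 CPM in HAT1 WT and 114 ± 11.2 CPM in HAT1 KO (SD, n = 3 each), which puts the KO mean at 61.6% of that in WT, and the log2 fold change was -0.70 (SE 0.10). Against WT line 78 alone, which also lacked high Y-linked expression, the log2 ratio of the 3 KO lines was -0.80.

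Ncf1 codes for the organiser p47phox, whose phosphorylation starts assembly of the complex. It lies on chromosome 5 between 134220053 and 134229625. In WT lines 36, 47 and 78 it was at 77.0, 72.4 and 68.8 CPM, against 44.9, 44.6 and 41.8 CPM in KO lines 33, 41 and 72. The KO lines were nearly equal to each other, with a mean of 43.8 ± 1.71 CPM against 72.7 ± 4.09 CPM in WT (SD, n = 3 each), and the log2 fold change was -0.73 (SE 0.07). Ncf1 shares 408 exon bases with Gtf2ird2 on the opposite strand, and the use of strand in counting was not stated. Gtf2ird2 was at 8.23 to 9.02 CPM in WT and 7.78 to 8.49 CPM in KO lines, far below Ncf1 on the same scale.

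Ncf4 codes for p40phox, which binds the membrane lipid of the phagosome. It lies on chromosome 15 between 78244801 and 78262580. Ncf4 was at 17.9, 21.7 and 21.1 CPM in WT lines 36, 47 and 78 and at 12, 14.7 and 15.4 CPM in KO lines 33, 41 and 72. The genotypes did not overlap, but WT line 36 and KO line 72 were only a few CPM apart. The log2 fold change was -0.52 (SE 0.13).

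Cyba codes for p22phox, the partner that both gp91phox and NOX4 need for stability. It lies on chromosome 8 between 122424776 and 122432930. Values of 110, 114 and 96.2 CPM in WT lines 36, 47 and 78 stood against 85.4, 86.5 and 93.4 CPM in KO lines 33, 41 and 72. The KO lines were again below the WT lines, but WT line 78 and KO line 72 nearly met, and the mean in KO was 82.8% of that in WT. The log2 fold change of -0.27 (SE 0.08) was the smallest of the phagocyte subunits. Against WT line 78 alone it was -0.11 in the fit, so the value rests largely on WT lines 36 and 47.

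**Figure D1:**
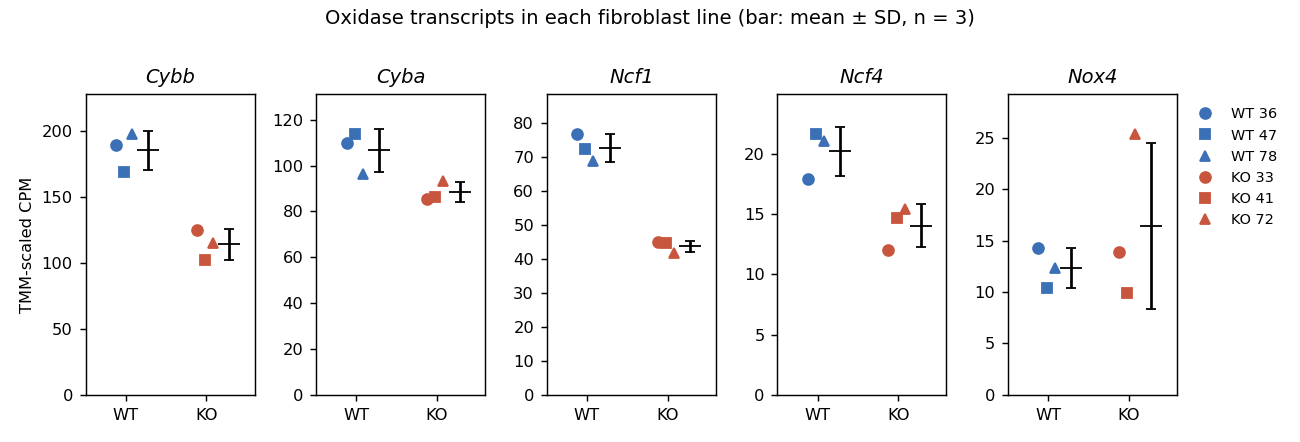
Level of each oxidase transcript in TMM-scaled CPM, with 1 point per line, WT in blue and KO in red, and a bar for the mean ± SD of 3 lines. Each vertical axis starts at 0. The KO lines lie below the WT lines for Cybb, Cyba, Ncf1 and Ncf4, while for Nox4 the genotypes overlap and KO line 72 stands above all others at 25.4 CPM.

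The 4 phagocyte members were thus all lower in KO without overlap between the genotypes, as were 12.4% of the 14773 genes tested, while 9.59% of those were higher without overlap. Since the members were chosen on this comparison, nothing is read from their count. Their median log2 fold change was -0.61, where that of all tested genes was 0.0085. Their summed level was 377 to 394 CPM in the WT lines and 248 to 267 CPM in the KO lines. In these bulk cultures, the cells that held these transcripts were not identified. Fewer such cells in a line and less RNA per cell cannot be told apart.

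Nox4, the fibroblast member, did not share this pattern. It lies on chromosome 7 between 87246096 and 87398710. Nox4 was at 14.3, 10.4 and 12.3 CPM in WT lines 36, 47 and 78 and at 13.9, 9.93 and 25.4 CPM in KO lines 33, 41 and 72. KO line 33 lay within the WT range and KO line 41 just below it, and KO line 72 alone was well above every other line. The means were 12.3 ± 1.93 CPM in WT and 16.4 ± 8.04 CPM in KO (SD, n = 3 each), with a log2 fold change of 0.41 (SE 0.35). Without KO line 72 the log2 fold change was -0.04, so the higher mean in KO came from that line.

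The ratio of each phagocyte subunit to Nox4 within a library was compared on the log2 scale of CPM. For Cybb it was 3.72 to 4.02 in the WT lines and 3.36, 3.16 and 2.18 in KO lines 41, 33 and 72. For Ncf1 it was 2.43 to 2.79 in WT and 2.17, 1.69 and 0.72 in the same KO lines. Both ratios were lower in each KO line than in any WT line, with mean differences of -1.01 and -1.04, which became -0.65 and -0.64 without KO line 72. Cybb and Ncf1 were chosen on this comparison and did not overlap by themselves, so nothing is read from the lack of overlap here. The share of all genes whose ratio to Nox4 did not overlap was not counted. The ratios of Cyba and Ncf4 to Nox4 overlapped between the genotypes, with mean differences of -0.58 and -0.84, or -0.25 and -0.54 without KO line 72. All 4 ratios were lowest in KO line 72, the line with the most Nox4.

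Levels of different genes were compared per kilobase of merged exons (RPKM). In the WT lines the order was Cyba at 92.6 to 110 RPKM, Cybb at 29.1 to 34.0, Ncf1 at a mean of 19.9 ± 1.12 (SD, n = 3), Ncf4 at 8.84 to 10.7 and Nox4 at 1.23 to 1.69 RPKM. No neighbours in this order overlapped, and the order of the means was the same in the KO lines, from Cyba at 82.2 to 89.9 RPKM to Nox4 at a mean of 1.94 RPKM. Transcripts of the phagocyte oxidase were therefore at higher levels per length than Nox4 in cultures labelled as fibroblasts. The length used matters for the distance. With the length of the transcript that has the longest coding sequence, a choice made after seeing the data, the order of the means was kept in both genotypes, and Nox4 was at 5.61 to 7.68 RPKM in WT, still below Ncf4 at 12.2 to 14.8 RPKM. In the KO lines on that scale Nox4 (5.33 to 13.7 RPKM) and Ncf4 (8.18 to 10.5 RPKM) overlapped.

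**Figure D2:**
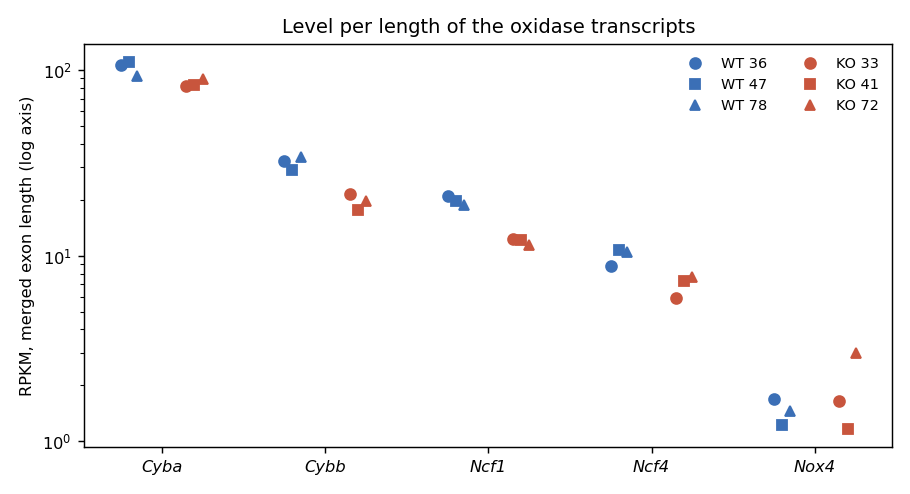
Level per length (RPKM over merged exons, log axis) of the oxidase transcripts, ordered by their mean in WT, with 1 point per line. Cyba is highest at 92.6 to 110 RPKM in WT, and Nox4 is lowest at 1.23 to 1.69 RPKM.

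Partners and activators of the oxidase were compared with a list of 9 genes, all of which were tested. In edgeR 0 of them passed the adjusted threshold, 2 were lower with a p-value under 0.05 before adjustment (Prkcb and Rac2) and 0 were higher, while DESeq2 called 1 after adjustment. Of all tested genes, 0.528% were lower at that threshold (adjusted p-value under 0.05 in edgeR) and 0 were higher, against 8.77% lower and 5.88% higher before adjustment. DESeq2 called 871 of the 14773 tested genes. The median log2 fold change of the list was -0.23.

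Prkcb, a protein kinase C that phosphorylates p47phox, had a log2 fold change of -0.79 (SE 0.14; edgeR adjusted p-value 0.0873). It was at 26.0, 23.3 and 21.6 CPM in WT lines 36, 47 and 78 and at 13.7, 15.8 and 11.4 CPM in KO lines 33, 41 and 72, so that the genotypes did not overlap. Rac2, the Rac GTPase of blood cells, had -0.39 (SE 0.14), and its lines overlapped, with KO line 33 at 32.9 CPM and WT line 78 at 32.3 CPM. Rac1, the GTPase of most cells, was at 308 ± 13.0 CPM in WT and 319 ± 3.45 CPM in KO (SD, n = 3 each). Cybc1, the chaperone that brings gp91phox and p22phox to maturity, was at 39.9 ± 1.22 CPM and 39.5 ± 0.845 CPM. Hvcn1, the proton channel that balances the charge moved by the oxidase, had a log2 fold change of -0.50 (SE 0.22). Arhgdib, which holds Rac GTPases in the cytosol of blood cells, was at 86.2 to 110 CPM in 5 lines and at 260 CPM in KO line 72, and its log2 fold change of 0.48 became -0.24 without that line.

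**Figure D3:**
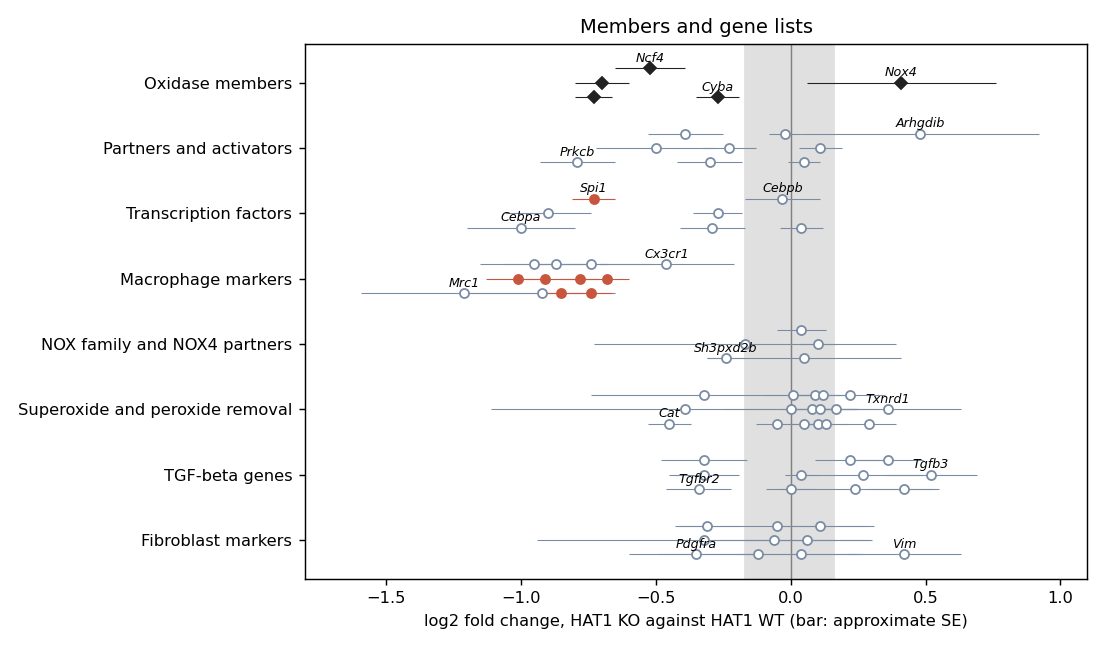
Log2 fold change of HAT1 KO against HAT1 WT for the members (diamonds, no test) and for the tested genes of each list (circles), with bars for the approximate SE. Filled red circles passed the adjusted threshold of 0.05 (edgeR), the grey band runs from the lower to the upper quartile of all tested genes (-0.17 to 0.16), and the filled circles are Spi1 and 6 macrophage markers, all lower in KO.

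Transcription factors that act on phagocyte oxidase genes were compared next, with 7 of 8 listed genes in the table. Spi1, which codes for PU.1, the master regulator of myeloid cells, was at 56.2, 59.7 and 58.9 CPM in WT lines 36, 47 and 78 and at 36.3, 31.9 and 37.5 CPM in KO lines 33, 41 and 72. It fell by 0.73 on the log2 scale (SE 0.08; edgeR adjusted p-value 0.0357). Over the alternatives the adjusted p-value ran from 3.95e-10 to 0.670 and passed in 7 of 14. Without a line it passed only when KO line 72 was left out (adjusted p-value 0.0487 in edgeR). The interferon regulatory factor Irf8 had a log2 fold change of -0.90 (SE 0.16) and Cebpa, a factor of myeloid cells and of fat cells, one of -1.0 (SE 0.20). Their edgeR adjusted p-values were 0.0801 and 0.113, so that neither passed. Without KO line 72 Cebpa passed, with a log2 fold change of -0.78 (edgeR adjusted p-value 0.0470). Elf1 (-0.27, SE 0.09) and Runx1 (-0.29, SE 0.12) were lower without overlap, and neither passed after adjustment in edgeR. Irf1 (0.04, SE 0.08) and Cebpb (-0.03, SE 0.14) had log2 fold changes near 0. Of the 7 genes, 5 were lower without overlap, where 12.4% of all tested genes were. Of the 7 genes, 1 was lower and 0 were higher after adjustment, and 4 were lower and 0 higher before it. Of all tested genes, 0.528% were lower after adjustment in edgeR and 8.77% were lower before it.

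Markers of other cell types were examined in the same lines. All 12 macrophage markers were lower in KO, with a median log2 fold change of -0.86. Of the 12 markers 11 were lower without overlap, where 12.4% of all tested genes were. In edgeR 6 of the markers passed the adjusted threshold, namely Csf1r, Adgre1, Itgam, Ptprc, Tyrobp and Lyz2, where 0.528% of all tested genes passed. DESeq2 called 11 of the 12 markers, against 871 of the 14773 tested genes. All 12 were lower in each of the 14 alternatives, but 0 passed with the lane in the model, with WT line 78 alone, or without WT line 36, 47 or 78 or KO line 33 or 41, while 4 passed without KO line 72. Csf1r, the receptor that macrophages need to survive, was at 568 to 609 CPM in WT and 331 to 375 CPM in KO lines. The neutrophil list gave 5 of 11 genes in the table, and S100a9, Ly6g, Mpo, Elane, Ngp and Ltf were not listed there. Its abundant marker S100a8 had at most 24 counts in any line, while Csf3r, which monocytes also express, had 118 to 499 counts. The B and T cell list gave 3 of 6 genes, with at most 11 counts in a line. The endothelial markers summed to 14.5 to 19.8 CPM in WT and 12.4 to 18.4 CPM in KO lines. Of the 5 endothelial genes tested 0 passed after adjustment in edgeR, and 2 were lower before it without overlap, Pecam1 (0.504 to 0.646 CPM in WT and 0.118 to 0.292 CPM in KO) and Cdh5 (0.522 to 0.742 CPM and 0.325 to 0.337 CPM). Before adjustment 8.77% of all tested genes were lower. The part of the macrophage transcripts in the lower oxidase levels was not tested.

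As a description, each member was set against the mean log2 CPM of the 12 macrophage markers in the same library. On this scale Cybb was at -0.07 to 0.26 in the WT lines and at 0.06 to 0.56 in the KO lines, and Ncf1 was at -1.30 to -1.10 and at -1.23 to -0.90. Both overlapped between the genotypes, with mean differences of 0.16 and 0.13, which were 0.03 and 0.04 without KO line 72. Cybb and Ncf1 were therefore lower in KO by about as much as the macrophage markers were. Ncf4 overlapped as well, with a mean difference of 0.34, or 0.14 without KO line 72. The mean of the macrophage markers was itself lower in KO by 0.86 on the log2 scale, without overlap. A gene with unchanged CPM is therefore higher in KO on this scale, and the share of all genes without overlap here was not counted. Nox4 was higher in each KO line than in any WT line, by 1.18 on average and by 0.68 without KO line 72. Among the phagocyte members only Cyba did not overlap. It was at -0.78 to -0.58 in WT and at -0.30, -0.18 and 0.26 in KO lines 33, 41 and 72, higher in every KO line than in any WT line, with a mean difference of 0.60, or 0.43 without KO line 72. The ratio of Cyba to Cybb was likewise higher in each KO line (-0.55 to -0.24) than in each WT line (-1.04 to -0.57), although KO line 33 and WT line 47 were close. The ratio of Ncf1 to Cybb, in contrast, was -1.35 ± 0.16 in WT and -1.38 ± 0.15 in KO (SD, n = 3 each).

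**Figure D4:**
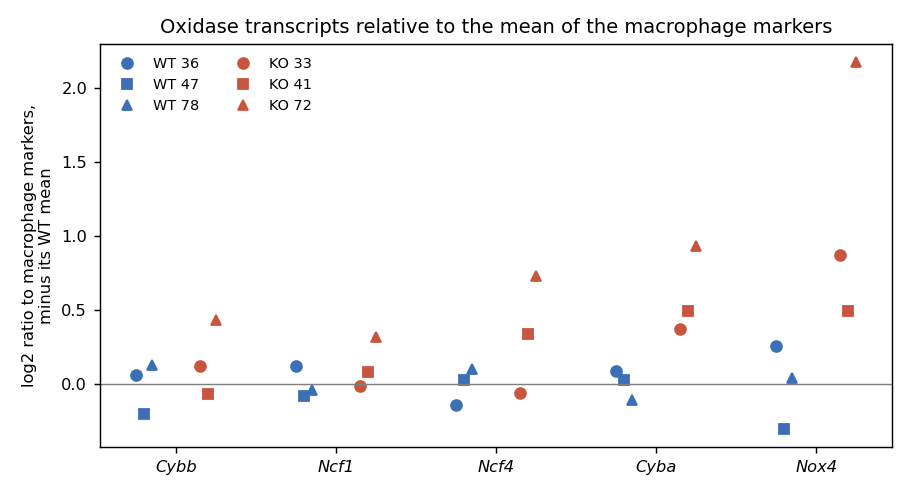
Log2 ratio of each oxidase transcript to the mean of 12 macrophage markers in the same library, after subtraction of its WT mean, with 1 point per line. The genotypes overlap for Cybb, Ncf1 and Ncf4, while each KO line lies above all WT lines for Cyba and Nox4, with mean differences of 0.60 and 1.18 that are 0.43 and 0.68 without KO line 72. The marker mean itself is lower in KO by 0.86, so a gene with unchanged CPM is higher in KO on this scale.

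Other enzymes of the family were at low levels. Nox1, Duox1, Duox2, Duoxa1 and Noxo1 had at most 44 counts in any line, and Nox3, Duoxa2 and Noxa1 were not in the table. Of the 8 listed genes present, 5 were tested. The NOX4 partner Poldip2 was at 51.4 ± 3.16 CPM in WT and 55.1 ± 0.552 CPM in KO (SD, n = 3 each). The scaffolds Sh3pxd2a and Sh3pxd2b, known as organisers of podosomes, had log2 fold changes of 0.04 (SE 0.09) and -0.24 (SE 0.07). After adjustment 0 genes of the list passed in edgeR or in DESeq2, and before it 1 (Sh3pxd2b) was lower with a p-value under 0.05 in edgeR. Before adjustment 8.77% of all tested genes were lower.

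Enzymes that remove superoxide and hydrogen peroxide were compared as a list of 17 tested genes, and none passed the adjusted threshold in edgeR. DESeq2 called 1 of the 17, against 871 of the 14773 tested genes. The median log2 fold change of the list was 0.09, and before adjustment edgeR gave 1 lower and 2 higher genes. Of all tested genes, 8.77% were lower and 5.88% higher before adjustment. Cat, which codes for catalase, was at 117, 105 and 119 CPM in WT lines 36, 47 and 78 and at 76.2, 85.5 and 87.4 CPM in KO lines 33, 41 and 72, with a log2 fold change of -0.45 (SE 0.08; edgeR adjusted p-value 0.0935). The genotypes did not overlap. Prdx6 (0.29, SE 0.10) and Prdx3 (0.17, SE 0.07), both peroxiredoxins, had the highest values among genes without overlap. Sod3, the superoxide dismutase secreted outside the cell, was at 53.0 to 79.6 CPM in WT, at 21.4 and 18.0 CPM in KO lines 33 and 41 and at 114 CPM in KO line 72. Without KO line 72 it fell by 1.75 on the log2 scale (adjusted p-value 0.0487 in edgeR), while with all lines the log2 fold change was -0.39 (SE 0.72). Sod1, Sod2 and Gpx1 had log2 fold changes of 0.10, 0.01 and 0.05.

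Since TGF-beta is known to induce Nox4 in fibroblasts, genes of that pathway were compared in the same lines. After adjustment 0 of the 11 passed in edgeR and 1 in DESeq2, and before it 1 was lower and 3 were higher in edgeR. Of the 14773 tested genes DESeq2 called 871 after adjustment, and edgeR gave 8.77% lower and 5.88% higher before it. The median log2 fold change of the list was 0.22. Ccn2, a target of TGF-beta that codes for connective tissue growth factor, was at 974 to 1188 CPM in the WT lines, at 1050 and 1061 CPM in KO lines 33 and 41 and at 1723 CPM in KO line 72. As for Nox4, KO line 72 was above the other 5 lines. It was also the highest line for genes outside this list, Arhgdib, Sod3 and Txnrd1, the last at 424 CPM against 206 to 236 CPM. A link of Nox4 to TGF-beta was not tested. The ligand Tgfb2 was highest in KO line 72 too, at 95.4 CPM, but WT line 36 was close at 83.5 CPM. The ligand Tgfb3 had the largest log2 fold change of the list, 0.52 (SE 0.17; edgeR adjusted p-value 0.262), with 193 to 291 CPM in WT and 289 to 362 CPM in KO lines, which overlapped. The contractile genes Acta2 and Tagln followed another order. Acta2 was at 2980 to 3560 CPM in WT and at 4959, 4447 and 3831 CPM in KO lines 33, 41 and 72, so that all KO lines were above the WT lines and KO line 72 was the lowest of them. The log2 fold change of Acta2 was 0.42 (SE 0.13; edgeR adjusted p-value 0.236). The receptor Tgfbr2 had a log2 fold change of -0.34 (SE 0.12).

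**Figure D5:**
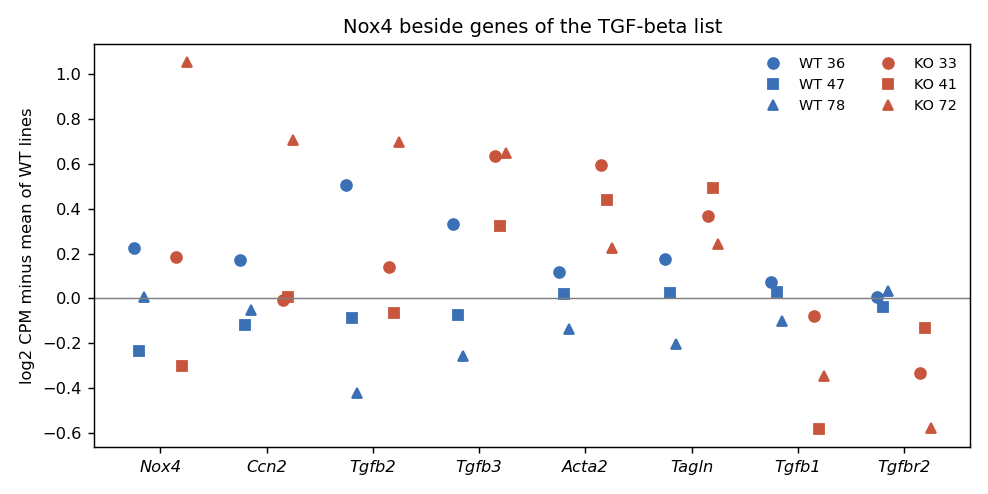
Log2 CPM of Nox4 and of 7 genes of the TGF-beta list, minus the mean of the WT lines, with 1 point per line. KO line 72 is the highest line for Nox4 and Ccn2, where KO lines 33 and 41 lie among or close to the WT lines, while for Acta2 and Tagln all KO lines lie above the WT lines.

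Likeness of pattern was measured as Pearson's r of log2 CPM over the 6 lines, among 12352 genes with a mean of at least 1 CPM, and is given as a description. The same libraries, which also differ in genotype and in their macrophage transcripts, enter every value, so these values do not show control of one gene by another. The genes most like Cybb were Letmd1 (0.998), Ankle2 (0.996), Gstm4 (0.995), Slc16a7 (0.994) and Arid1b (0.992). Their log2 fold changes ran from -0.70 for Slc16a7 to -0.11 for Ankle2, so a like order of the lines did not mean a like size of difference. For Nox4 they were Chst14 (0.995), Cyp2u1 (0.994), Vps53 (0.994), 2900026A02Rik (0.994) and Dmtn (0.992). A likeness of at least 0.95 was reached by 99 genes for Cybb and by 87 for Nox4, that is 0.802% and 0.704% of the genes compared. Among the oxidase genes themselves the values were highest for Cybb with Ncf1 (0.94) and Cyba with Ncf1 (0.86). They were lower for Cybb with Ncf4 (0.77) and with Cyba (0.74), and below 0 for Nox4 with each of the 4 phagocyte members (-0.40 to -0.12). With Csf1r the values were 1.00 for Ncf1, 0.94 for Cybb, 0.84 for Cyba, 0.81 for Ncf4 and -0.43 for Nox4. For Ncf1, 209 genes or 1.69% reached a likeness of at least 0.95.

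Every KO line was below every WT line for the phagocyte subunits, so a lower value within each sequencing lane was fixed in advance. Only the sizes are given here, and these ratios do not test an effect of lane. On lane 6, where WT line 47 stood beside KO lines 33 and 72, the log2 ratio of KO to WT was -0.50 for Cybb, -0.35 for Cyba, -0.74 for Ncf1 and -0.66 for Ncf4. On lane 7, with WT line 78 and KO line 41, it was -0.95, -0.15, -0.62 and -0.52 in the same order. For Nox4 the ratio was 0.91 on lane 6 and -0.31 on lane 7, so its direction differed between the lanes.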

How the data were processed

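RNA was sequenced in 6 pMEF lines with TruSeq libraries, and the authors deposited raw read counts per gene with no normalization. The submitters' processing notes name edgeR and mm10, while the aligner, counter and use of strand were not given in the sources used here. The deposited table also held the authors' own log2 fold changes, log2 mean CPM, F, p-values and q-values, which were not used. Genes were found by symbol and placed by Ensembl identifier in GENCODE M21 on GRCm38, in which all 17512 had an entry.

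The test was edgeR 4.0.16 under R 4.3.3 (filterByExpr, TMM scaling, glmQLFit and glmQLFTest with genotype alone, two-sided), with Benjamini-Hochberg adjustment over 14773 tested genes and a threshold of 0.05. DESeq2 1.42.0 was an alternative, and both were tested on simulated data. The SE is the log2 fold change divided by the square root of F. CPM are counts relative to the TMM-scaled library size, and RPKM divide them by merged exon length. Each line was 1 replicate. The smallest count of a member in a library was 671, so spread between the lines (edgeR common dispersion 0.0747) limited precision more than depth. Among the low counts of a library, 71.6% to 77.6% were even. Counts may therefore exceed the number of independent fragments, which was not tested. Alternatives changed the scaling, test, filter, lane term, lines and halved counts. No value was taken from samples outside the groups. The members and lists were chosen with earlier results of these data known. Named genes were Hat1, the members, list genes and the 5 genes most like Cybb or Nox4 in pattern; Gtf2ird2 was added for its overlap. Some genes of the partner and TGF-beta lists are not reported here and are left out of the list counts.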

Additional observations from a re-analysis of the deposited data

How the results depend on the processing

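The 4 phagocyte members were chosen on this comparison, and their KO lines did not overlap the WT lines. Leaving out lines could thus not reverse their direction, and nothing is read from the negative sign in all 14 alternatives. The log2 fold changes lay within -0.78 to -0.62 for Cybb, -0.34 to -0.11 for Cyba, -0.76 to -0.64 for Ncf1 and -0.60 to -0.42 for Ncf4. Across the 6 fits that each left out 1 line the ranges were -0.77 to -0.62, -0.34 to -0.22, -0.76 to -0.69 and -0.60 to -0.42. With WT line 78 alone, Cyba (-0.11) and Ncf1 (-0.64) moved by more than the spread between lines. Nox4 ranged from -0.04 (without KO line 72) to 0.67 (without KO line 41) and was above 0 in 13 of 14 alternatives.

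Over all genes, edgeR called 78 at the adjusted threshold of 0.05. It was 871 in DESeq2, 46 without a filter, 2 with the lane in the model, a fit in which WT line 36, alone on its lane, carries no information on genotype, 0 with WT line 78 alone (1126 with an unadjusted p-value under 0.05 there) and between 0 and 73 without 1 line. Partners of the oxidase gave 0 such genes in edgeR and 1 in DESeq2. The transcription factors gave 1, Spi1, with 3 in DESeq2, 0 with the lane or with WT line 78 alone, and 0 to 2 without 1 line. The redox list gave 0 in edgeR, 1 in DESeq2 and 0 to 1 without 1 line. The TGF-beta list gave 0 in edgeR and 1 in DESeq2. Why these counts moved was not examined, so the cause was not tested. Macrophage markers, an alternative added after seeing the data, gave 6 in edgeR, 11 in DESeq2, 0 with the lane or with WT line 78 alone, and 0 to 4 without 1 line. Of 684 values for single genes of the partner, NOX family, transcription factor, redox and TGF-beta lists, 670 kept their side of the threshold. The macrophage markers were not among these values. The call was gained in 7 values and lost in 7. All 7 lost calls were of Spi1, the only gene of these lists that edgeR called with all lines. The sign changed in 22 of the 684 values, over 12 genes, 7 without KO line 72, and none of these 22 was called.

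An added alternative, chosen after seeing the data, used the length of the transcript with the longest coding sequence. Mean WT levels were then 144 RPKM for Cyba, 39.0 for Cybb, 26.3 for Ncf1, 13.8 for Ncf4 and 6.63 RPKM for Nox4, where merged exons gave 103, 31.9, 19.9, 10.0 and 1.46 RPKM. No paired analysis was possible because the genotypes share no replicate numbers.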
